A study of Mus musculus with 6 samples.

Results

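The 8 genes described here are grouped by family as secreted antagonists of Wnt signalling, and their action on Wnt signalling was not measured. They encode the secreted frizzled-related proteins Sfrp1, Sfrp2, Frzb, Sfrp4 and Sfrp5, the Dickkopf proteins Dkk2 and Dkk3, and the Wnt inhibitory factor Wif1. They were taken as a fixed list of names, with every probe set of the array annotated to one of these symbols alone. That gave 15 probe sets of 8 genes, out of 34958 probe sets with 1 symbol and 18194 genes. The tissues were brown fat and the white depots labelled subcutaneous and epididymal, each from knockout mice lacking Kdm4b throughout the body (KO) and from wild-type mice (WT). Kdm4b encodes a demethylase of histone lysines. All mice were males aged 2 months, kept on chow at room temperature and fasted for 6 hours, and the groups were KO brown, WT brown, KO subcutaneous, WT subcutaneous, KO epididymal and WT epididymal fat. Each group was 1 Affymetrix array (6 arrays). The number of mice behind an RNA sample is not in the labels, nor is it said whether the depots of a genotype came from the same animals.

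Wnt proteins are secreted lipid-modified signals that bind frizzled receptors and the co-receptors Lrp5 and Lrp6, and in the canonical branch this stabilises beta-catenin, which acts with TCF/LEF factors on target genes. In fat, canonical Wnt signalling holds precursor cells back from becoming adipocytes. Secreted frizzled-related proteins carry a frizzled-like domain and bind Wnts outside the cell, Wif1 binds Wnts through another domain, and Dickkopf proteins such as Dkk2 act on the co-receptors. Sfrp5 is known in mice as a protein secreted by white adipocytes that binds Wnt5a, and its transcript has been described as varying with the expansion of white fat.

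The promoters of Sfrp5 and Sfrp2 are shown because these genes had the widest gaps between brown and white fat among the antagonist genes that could be tested. The RefSeq promoter table (GRCm38.p6) held 5 of the 8 genes, with 300 bases each, 250 before and 50 after the annotated start. Sfrp5 is given from chr19:42202203-42202502 on the minus strand and Sfrp2 from chr3:83766071-83766370 on the plus strand, 5′ to 3′, with capitals marking a CCAAT-box match.
Sfrp5: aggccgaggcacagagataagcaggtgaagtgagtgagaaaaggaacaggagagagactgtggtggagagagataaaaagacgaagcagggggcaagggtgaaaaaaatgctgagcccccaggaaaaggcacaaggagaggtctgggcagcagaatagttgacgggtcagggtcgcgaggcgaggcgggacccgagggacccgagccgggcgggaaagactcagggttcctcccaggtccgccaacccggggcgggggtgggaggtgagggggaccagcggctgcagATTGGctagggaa
Sfrp2: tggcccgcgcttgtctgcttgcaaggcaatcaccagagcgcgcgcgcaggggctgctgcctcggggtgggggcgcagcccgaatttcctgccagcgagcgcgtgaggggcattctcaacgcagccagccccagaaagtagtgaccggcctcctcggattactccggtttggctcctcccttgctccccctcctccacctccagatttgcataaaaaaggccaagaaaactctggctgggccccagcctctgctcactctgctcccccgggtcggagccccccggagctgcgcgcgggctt
Searched on both strands were the TCF/LEF core CTTTG, the CCAAT box CCAAT and the TATA box TATAAA. The Sfrp5 window held 1 match, the reverse complement ATTGG of the CCAAT box at position 38 (counted from 1 at the first transcribed base), and the Sfrp2 window held none of the 3 motifs. Among the 5 matched genes, 3 windows held CTTTG, 2 held CCAAT and 2 held TATAAA, against 54.0%, 37.9% and 14.2% of 27025 promoters. The GC content was 61.3% for Sfrp5 and 66.0% for Sfrp2, against a median of 52.7% over all promoters.

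Values are MAS5 signals, a linear brightness per probe set that the authors computed for each array alone and that had a 2%-trimmed mean of 500.0 on all 6 arrays. A signal of 63.2, the 40th percentile of the probe sets, served as a floor below which signals were not read. Of the 15 antagonist probe sets, 5 were above the floor on all 6 arrays, 9 on at least 3 and 1 on none. A gene is represented by its brightest probe set, and log2 differences are KO minus WT. With 1 array a group there is no test within a depot, and the only error there is the SD between probe sets of one gene, with log2 values of 0.32 in brown, 0.32 in subcutaneous and 0.31 in epididymal fat. That SD holds no spread between animals. Arrays had 12651 to 13602 genes above the floor, the most on the KO subcutaneous array. The adipocyte list (Adipoq, Fabp4 and others) was above the floor for 10 of 10 genes on every array, and the brown adipocyte list (Ucp1 and others) was higher in brown than in white fat for 10 of 10 genes (limma adjusted p under 0.05). Kdm4b had signals of 95.2 in KO and 134.6 in WT brown fat, 156.7 in KO and 272.1 in WT subcutaneous fat, and 188.4 in KO and 226.7 in WT epididymal fat. Its single probe set was thus dimmer on each KO array. The log2 differences were -0.5 in brown, -0.8 in subcutaneous and -0.27 in epididymal fat, the last within the SD between probe sets. Whether the probe set lies outside the deleted part cannot be told, since the deleted exons are not named in the labels.

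Sfrp5 was higher in KO in both white depots, by more than any other antagonist gene with both arrays of the depot above the floor, and it was lower in KO brown fat. Its signals were 92.4 in KO and 177.0 in WT brown fat, 1575.4 in KO and 616.2 in WT subcutaneous fat, and 3295.2 in KO and 1131.0 in WT epididymal fat. In order of level, KO epididymal fat came first, followed by KO subcutaneous, WT epididymal, WT subcutaneous, WT brown and KO brown fat. Whether neighbours in that order differ beyond the spread between mice cannot be told from 1 array each. Both KO white arrays were above both WT white arrays, and all 4 white arrays were above the brown ones.

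The Sfrp5 log2 difference was 1.35 in subcutaneous fat, 2.56-fold higher in KO, and 1.54 in epididymal fat, 2.91-fold higher. In brown fat it was -0.94, or 1.92-fold lower in KO. All of these exceeded the SD between probe sets. In brown fat the value rests on dim signals: it was -0.47 with the mean of both probe sets, and -0.04 with the floor at the 60th percentile.

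A second Sfrp5 probe set went the same way in white fat. It had signals of 243.9 in KO and 126.0 in WT subcutaneous fat and 523.5 in KO and 99.9 in WT epididymal fat, log2 differences of 0.95 and 2.39. In brown fat it was below the floor on both arrays, at 16.0 in KO and 24.5 in WT, so it gives no difference there.

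**Figure D1:**
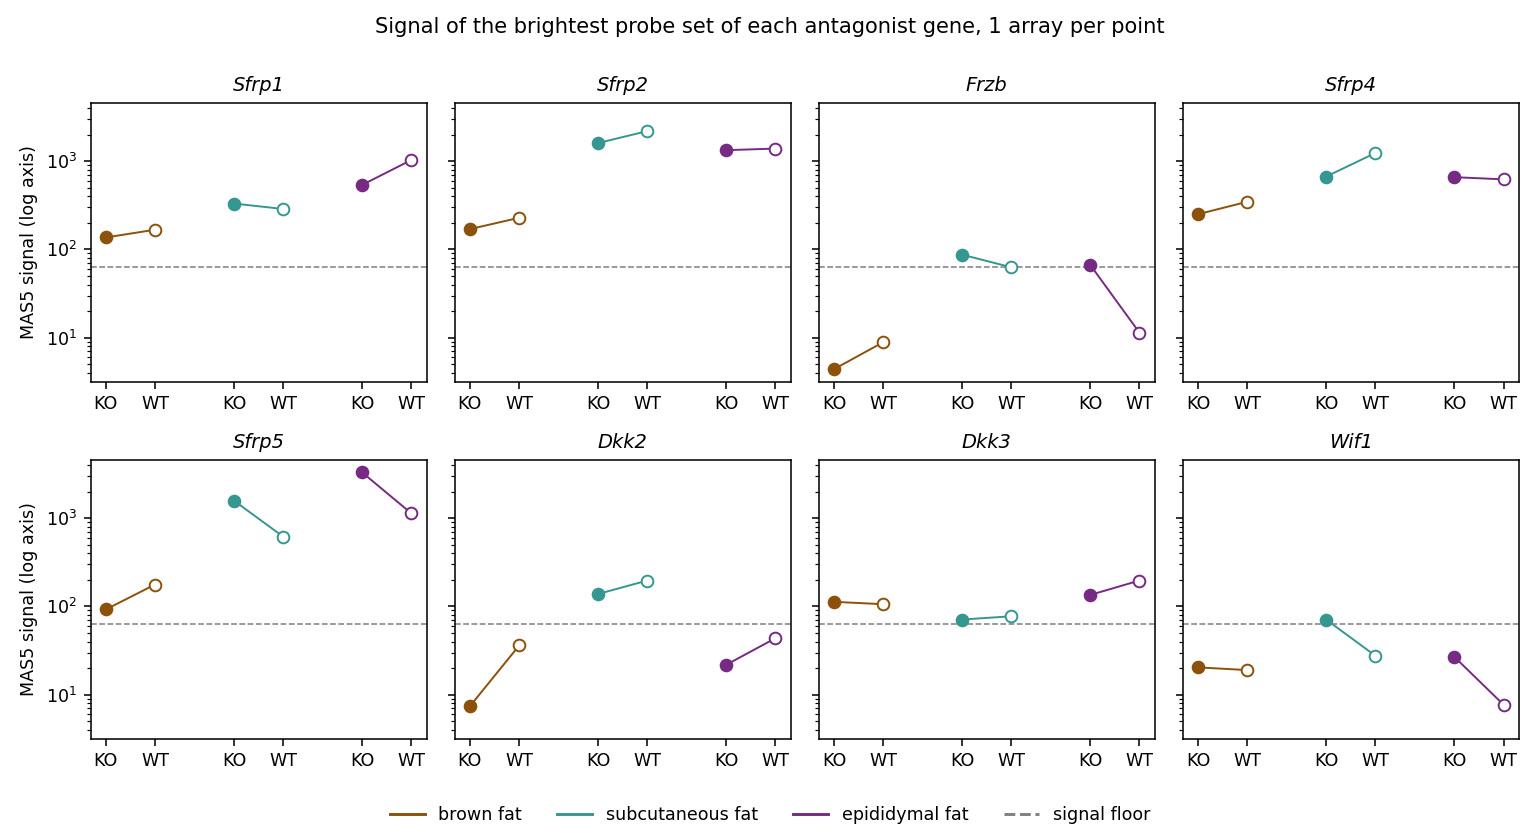
MAS5 signal (log axis) of the brightest probe set of each of the 8 antagonist genes, with 1 point per array, KO filled and WT open, joined within a depot; the dashed line is the floor of 63.2. Sfrp5 was higher in KO in both white depots (1575.4 against 616.2 and 3295.2 against 1131.0), and Frzb, Dkk2 and Wif1 lay near or under the floor on most arrays.

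Ranked among all genes measured in a depot by KO minus WT, Sfrp5 was number 13 of 13245 from the top in epididymal fat and number 85 of 13872 in subcutaneous fat. In brown fat it was number 411 of 13779 from the bottom. It was 1 of 32 genes at least 2-fold higher in KO in both white depots, which was 0.25% of the 12815 genes measured in both. By the mean of its white differences it ranked 9 among the 32. Of these 32 genes, 28 were measured in brown fat and 9 were lower in KO there, and the brown difference of Sfrp5 was the lowest of the 28.

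Another of the 32 was Mest, an imprinted gene that has been described in mouse white fat together with Sfrp5 and that was chosen for mention after its values were seen. Mest had log2 differences of 0.34 in brown, 2.05 in subcutaneous and 1.26 in epididymal fat. It was thus higher in KO in all 3 depots, whereas Sfrp5 was higher in the white ones.

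**Figure D2:**
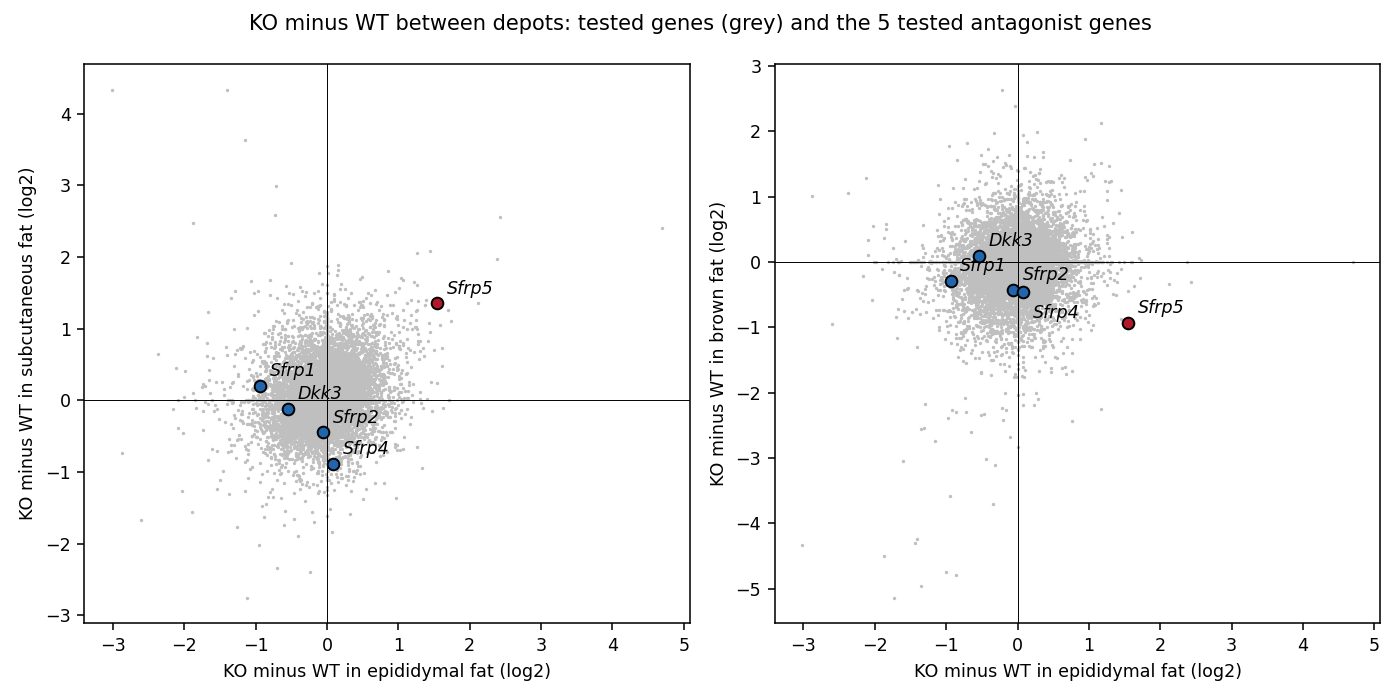
KO minus WT (log2) in epididymal fat on the horizontal axis of both panels, against subcutaneous fat (left) and brown fat (right), with 1 grey point per tested gene and larger points for the 5 tested antagonist genes. Sfrp5 (red) lies at 1.54 and 1.35 on the left and at 1.54 and -0.94 on the right, while the other 4 lie within the cloud.

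Sfrp1, which binds Wnts through the same kind of domain, differed between genotypes most in epididymal fat and in the other direction. Its signals were 136.5 in KO and 167.1 in WT brown fat, 330.6 in KO and 286.9 in WT subcutaneous fat, and 536.7 in KO and 1029.5 in WT epididymal fat. The epididymal log2 difference was -0.94, 1.92-fold lower in KO. Those in brown and subcutaneous fat, -0.29 and 0.20, were within the SD between probe sets.

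Sfrp1 had 5 probe sets, and 4 of them were lower in KO epididymal fat. The others among these 4 had log2 differences of -0.61, -0.87 and -0.37, with signals of 83.7, 106.2 and 122.8 in KO against 127.5, 193.6 and 159.2 in WT. The fifth had 101.7 in KO and 27.4 in WT epididymal fat, where the WT array was under the floor, so KO was at least 0.69 higher on the log2 scale. The Sfrp1 probe sets therefore disagreed in direction in this depot. One of the dimmer ones also had 126.0 in KO and 25.6 in WT brown fat, while the brightest was slightly lower in KO there.

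Sfrp2 and Sfrp4 were lower in KO in brown and subcutaneous fat and nearly level in epididymal fat. Sfrp2, a frizzled-related protein made by stromal and precursor cells, had 169.7 in KO and 228.1 in WT brown fat, 1601.8 in KO and 2184.1 in WT subcutaneous fat, and 1328.8 in KO and 1386.0 in WT epididymal fat. These are log2 differences of -0.43, -0.45 and -0.06. Sfrp4, described as a protein released by human fat, had 250.4 in KO and 346.3 in WT brown fat, 667.3 in KO and 1236.2 in WT subcutaneous fat, and 657.5 in KO and 621.2 in WT epididymal fat. Its log2 differences were -0.47, -0.89 (1.85-fold lower in KO) and 0.08. For both genes the brown and subcutaneous differences exceeded the SD between probe sets and the epididymal ones did not, and each had a single probe set. From the bottom in brown fat, Sfrp2 was number 2004 and Sfrp4 number 1743 of 13779 genes. Differences beyond that SD were thus common there. In subcutaneous fat Sfrp2 was number 1013 and Sfrp4 number 146 of 13872.

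**Figure D3:**
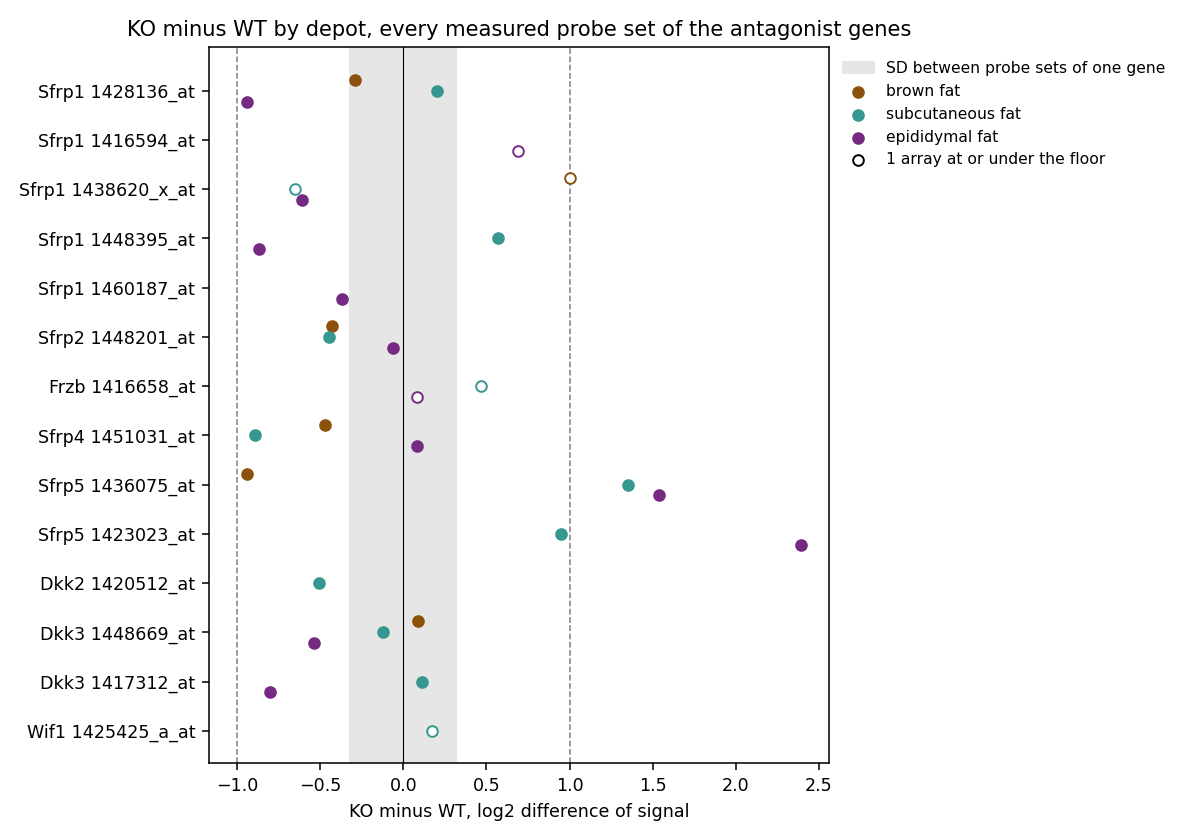
KO minus WT (log2) in each depot for each antagonist probe set with at least 1 of its 2 arrays above the floor; the grey band is the SD between probe sets of one gene, dashed lines mark 2-fold, and open points have 1 array at or under the floor and are bounds. The 2 Sfrp5 probe sets lie to the right in both white depots (0.95 to 2.39), and 4 of the 5 Sfrp1 probe sets lie to the left in epididymal fat.

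Among the Dickkopf genes, Dkk3, a divergent member of its family, was low in every depot. Its signals were 112.7 in KO and 105.9 in WT brown fat, 71.0 in KO and 77.3 in WT subcutaneous fat, and 134.8 in KO and 196.4 in WT epididymal fat. The epididymal difference of -0.54 exceeded the SD between probe sets, and a second probe set had -0.80 there, with 74.9 in KO against 130.4 in WT. By the -0.54 of its brightest probe set, Dkk3 was number 1049 of 13245 genes from the bottom in epididymal fat. Differences in brown and subcutaneous fat were 0.09 and -0.12.

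Dkk2, which binds the Wnt co-receptors, was above the floor on the subcutaneous arrays alone, with 138.2 in KO and 196.2 in WT and a log2 difference of -0.51. In brown fat it had 7.4 in KO and 36.1 in WT, and in epididymal fat 21.8 in KO and 43.6 in WT. Dkk2 was thus seen in 1 depot of 3.

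Frzb, a frizzled-related protein first known from cartilage, was above the floor on 2 arrays, with 87.2 in KO subcutaneous and 66.9 in KO epididymal fat. The WT arrays of the same depots had 62.7 and 11.4, so KO was higher by at least 0.47 and 0.08 on the log2 scale, while the brown arrays had 4.4 in KO and 8.9 in WT. Its other probe set was under the floor on all 6 arrays. Wif1 was above the floor on 1 array, KO subcutaneous fat, with 70.9 against 27.6 in WT, at least 0.17 higher on the log2 scale. Its signals in the other depots were 7.7 to 26.9. With the floor at the 20th percentile, the epididymal difference of Frzb was 1.78 and the subcutaneous one of Wif1 1.36, beside 1.54 and 1.35 for Sfrp5 in these depots. Values this near the floor cannot be told from noise with 1 array each.

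Counted over the antagonist genes, KO was at least 2-fold from WT for 0 of 5 measured in brown fat, where 3.53% of all measured genes were, for 1 of 8 in subcutaneous fat (2.96% of all) and for 1 of 6 in epididymal fat (2.33% of all). The single gene was Sfrp5 in both white depots. KO was lower than WT for 4 of 5, 4 of 8 and 3 of 6 measured genes in brown, subcutaneous and epididymal fat. The median log2 difference was -0.43 in brown fat, beside -0.03 over all genes, 0.02 in subcutaneous fat, beside 0.04, and 0.01 in epididymal fat, beside -0.02.

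The KO comparison over depots was tested with limma over 13233 genes, among them 5 antagonist genes that passed the floor on 3 or more arrays (Sfrp1, Sfrp2, Sfrp4, Sfrp5 and Dkk3). Here the depots serve as the replicates: a p-value says how alike the 3 depots differed between genotypes, and nothing of the spread between animals. None of the 5 passed at an adjusted p under 0.05, where 0.0% of all genes did, and 0 of 5 had an unadjusted p under 0.05, against 8.34% of all genes (1 of 5 with an intensity trend in the variance). For Sfrp5 the mean difference was 0.65 ± 0.51 (SE, 95% interval -0.66 to 1.96, limma adjusted p = 0.724), higher in 2 of 3 depots. Without the brown depot, an alternative chosen after seeing the data, it was 1.45 (limma adjusted p = 0.48), and without the epididymal or the subcutaneous depot it was 0.21 or 0.30.

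The other 4 tested genes all had a mean below 0, and their intervals all included 0. Sfrp2 had -0.31 ± 0.14 (SE, limma adjusted p = 0.621), lower in 3 of 3 depots. Sfrp4 had -0.43 ± 0.21 and Sfrp1 -0.34 ± 0.24, each lower in KO in 2 of 3 depots, with limma adjusted p = 0.631 and 0.695. Dkk3 had -0.19 ± 0.16 (limma adjusted p = 0.736).

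Whether the KO difference itself differed between brown and white fat was tested with a genotype by brown term, which left 1 residual degree of freedom. The brown difference is 1 array per genotype and is fitted exactly, so the SE, interval and p of this term rest on how alike the 2 white depots were, with the variance moderated over genes, and hold no spread of brown fat. For Sfrp5 the brown difference minus the white one was -2.39 ± 0.25 on the log2 scale (SE, 95% interval -3.08 to -1.69). Its unadjusted limma p was 0.000609, and its limma adjusted p = 0.529. It was the single antagonist gene of 5 with an unadjusted p under 0.05, where 8.06% of all genes had one, and 0 of 5 passed after adjustment, where 0.0% of all genes did. With an intensity trend the limma adjusted p for Sfrp5 was 0.0054, and with each array centred on its median the difference was -2.24 with an adjusted p of 0.000242. Over the other scalings, floors, filters and probe set choices, and with either white depot left out, the difference was -2.48 to -1.49. Its limma adjusted p in these others was 0.195 (no filter on low signals) to 0.637 (mean of all probe sets). No p was given where a white depot was left out, and single arrays were not left out of this fit. For the other 4 genes the estimates were 0.42 for Dkk3, 0.07 for Sfrp1, -0.06 for Sfrp4 and -0.17 for Sfrp2, with limma adjusted p of 0.762 or more.

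Markers of cell types moved with genotype in some depots. The fibroblast and precursor list summed to 26409 in KO and 38123 in WT brown fat, 101295 in KO and 118105 in WT subcutaneous fat, and 97542 in KO and 92028 in WT epididymal fat. Those sums were lower in KO in the same 2 depots where Sfrp2 and Sfrp4 were lower. The match was not particular to this list. Macrophage markers also summed lower in KO there, with 8320 against 10609 in WT brown fat and 43679 against 58218 in WT subcutaneous fat. Adipocyte markers summed to 186782 in KO and 215360 in WT brown fat, 178609 in KO and 173923 in WT subcutaneous fat, and 198867 in KO and 207041 in WT epididymal fat. Of 12 skeletal muscle markers, 11 were at least 2-fold lower in KO brown fat (median log2 difference of the list -4.32) and 9 in KO epididymal fat (-1.33), while 3 were at least 2-fold higher in KO subcutaneous fat (0.23). Markers of epithelium and seminal vesicle summed to 2929 in KO and 2334 in WT brown fat, 2240 in KO and 8621 in WT subcutaneous fat, and 3525 in KO and 4984 in WT epididymal fat. Of these, 4 of 7 measured were at least 2-fold lower in KO subcutaneous fat (median -1.63) and 2 of 7 in KO epididymal fat (-0.70), the depots where Sfrp5 was higher. The 4 in subcutaneous fat were the seminal vesicle genes Svs2, Svs4, Svs5 and Pate4. The epithelial genes Epcam (log2 difference 0.69), Krt5 (at least 0.75) and Cdh1 (0.29) were higher in KO there. In epididymal fat the 2 were Svs2 and Cdh1. The part of any of these lists in the differences of the antagonist genes was not tested, and in bulk tissue fewer cells of a type and less RNA per cell cannot be told apart.

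Brown fat held less of 4 of the 5 tested antagonist genes than the white depots did. In this fit the KO and WT arrays of a depot stand in for replicates. Intervals and p-values between depots, also those between the white depots below, therefore hold no spread between animals of one group. Against the mean of the white depots, Sfrp5 was 10.8-fold lower in brown fat (95% interval 4.11 to 28.3, limma adjusted p = 0.00544, 2 against 4 arrays) and Sfrp2 8.1-fold lower (6.27 to 10.5, adjusted p = 0.000439). Sfrp1 was 3.17-fold lower (2.03 to 4.93, limma adjusted p = 0.00455) and Sfrp4 2.59-fold lower (1.75 to 3.83, limma adjusted p = 0.00574). For Sfrp1 the brightest brown array, at 167.1, was below the dimmest white one, at 286.9, and for Sfrp4 these were 346.3 and 621.2. The brown and white arrays did not overlap for any of the 4. How often that held over all genes is not given here, and 52.7% of all genes tested differed between brown and white fat (limma adjusted p under 0.05). Dkk3 differed by -0.01 ± 0.17 on the log2 scale (SE, 95% interval -0.44 to 0.43, limma adjusted p = 0.973).

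That 4 of 5 were lower stands beside 31.2% of all genes tested that were lower in brown fat and 21.5% that were higher. The 4 calls held with each single array left out. Where that array was a brown one, the remaining brown array was assumed to vary like the white ones. When genes of low signal were not filtered out, Sfrp2 was the only one of them to pass, and the limma adjusted p was 0.0676 for Sfrp1, 0.071 for Sfrp4 and 0.0865 for Sfrp5. With a gene's probe sets averaged, the log2 difference was -0.66 for Sfrp1, against -1.66 with the brightest probe set, and -2.55 for Sfrp5, against -3.43, with limma adjusted p = 0.0207 and 0.0125. Fibroblast and precursor markers were lower in brown fat for 14 of 14 tested genes, and macrophage markers for 10 of 10 (limma adjusted p under 0.05). Their part in the lower antagonist signals was not tested.

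The gap of Sfrp5 between brown and white fat was 24.7-fold in KO and 4.72-fold in WT, lower in brown fat in both, and these are also its values with the other brown array left out. Sfrp2 had gaps of 8.6-fold in KO and 7.63-fold in WT, Sfrp1 3.09-fold in KO and 3.25-fold in WT, and Sfrp4 2.65-fold in KO and 2.53-fold in WT. The test of these gaps between genotypes is the genotype by brown term given above. In the promoter windows of Sfrp5 and Sfrp2 shown above, neither held CTTTG or TATAAA.

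**Figure D4:**
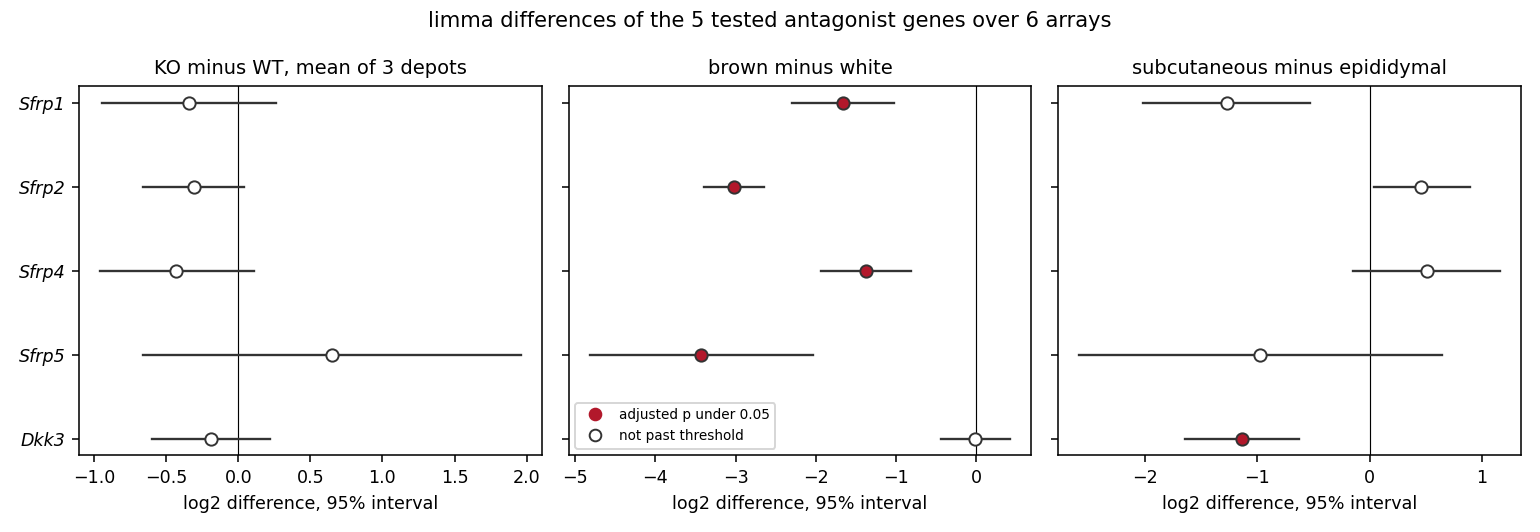
limma log2 differences of the 5 tested antagonist genes over 6 arrays with 95% intervals, for KO minus WT, brown minus white and subcutaneous minus epididymal fat; filled points have an adjusted p under 0.05. Brown minus white is filled for Sfrp1, Sfrp2, Sfrp4 and Sfrp5 (-1.37 to -3.43), subcutaneous minus epididymal for Dkk3 (-1.13), and no KO minus WT point is filled.

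Between the white depots, Dkk3 was lower in subcutaneous than in epididymal fat, 2.2-fold (95% interval 1.55 to 3.11, limma adjusted p = 0.0451, 2 against 2 arrays), with 71.0 and 77.3 in subcutaneous fat against 134.8 and 196.4 in epididymal fat. It was 1 of 5 genes past the threshold, where 5.06% of all genes tested were. With any 1 of the 6 arrays left out the adjusted p for Dkk3 lay between 0.0537 and 0.245. Sfrp1 had a log2 difference of -1.27 ± 0.29 (SE, limma adjusted p = 0.0843), with 330.6 and 286.9 in subcutaneous fat against 536.7 and 1029.5 in epididymal fat. It passed with an intensity trend (limma adjusted p = 0.0278), with the floor at the 60th percentile (0.0344), with median centring (0.00169) and without the KO subcutaneous array (0.0416).

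The remaining 3 genes did not pass between the white depots. Sfrp2 had 0.46 ± 0.17 (SE, limma adjusted p = 0.202), Sfrp4 0.51 ± 0.26 (limma adjusted p = 0.328) and Sfrp5 -0.97 ± 0.63 (limma adjusted p = 0.433). For Sfrp2 and Sfrp4 both subcutaneous arrays were above both epididymal ones, for Sfrp4 by as little as 667.3 against 657.5. How often this held over all genes is not given here. Mesothelial markers, from the cell layer that covers abdominal organs and epididymal fat, summed to 735 in KO and 577 in WT subcutaneous fat against 11396 in KO and 13708 in WT epididymal fat, and 7 of 8 tested were lower in subcutaneous fat. Their part in the Dkk3 and Sfrp1 values was not tested.

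The genes whose log2 signals followed each antagonist gene most closely over the 6 arrays were taken from 6704 genes with a range of at least 1 on the log2 scale. These correlations describe 6 arrays that share the brown and white split. For Sfrp5 the closest were Ostm1 and Clcn7, both genes of lysosomal membrane proteins, H2ac19, a histone gene of a multigene family whose probes may be shared, Olfm1 and Hrct1, with Pearson r of 0.992 to 0.994. All 5 were lower in KO brown fat and higher in KO in both white depots. They were picked for following Sfrp5 over these same arrays, so the shared direction is no separate result. Some of these differences were within the SD between probe sets, such as -0.08 for Hrct1 in brown fat. Olfm1 had log2 KO differences of -0.33 in brown, 0.78 in subcutaneous and 1.06 in epididymal fat. Its signals were 174.3 in KO and 219.0 in WT brown fat, 1491.5 in KO and 871.2 in WT subcutaneous fat, and 3036.0 in KO and 1455.8 in WT epididymal fat.

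Sfrp2 was followed by Cyba, a subunit gene of the phagocyte oxidase, the transcription factor gene Maf, the macrophage lectin gene Clec10a, Jade2 and Ppt1, each with r = 0.999. Macrophage markers as a list summed to 8320 in KO and 10609 in WT brown fat, 43679 in KO and 58218 in WT subcutaneous fat, and 51948 in KO and 44798 in WT epididymal fat. Sfrp4 was followed by Heatr6, the mitochondrial iron carrier gene Slc25a37, the interferon-induced gene Ifi204, Epb41l3 and Zfp729b (r = 0.994 to 0.998), and Sfrp1 by Cldn22, Wdsub1, Steap2, the tetraspanin gene Tspan2 and Plpp2 (0.989 to 0.998). Dkk3 had looser neighbours, Adgrg1, Mroh2a, Dnaja4, the homeobox gene Meis1 and Podxl (0.967 to 0.985). Among the antagonist genes, Sfrp2 and Sfrp4 had r = 0.94, Sfrp5 and Sfrp2 0.85, and Sfrp5 and Sfrp1 0.80.

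Other genes of the pathway gave a scale for the antagonist genes. In 5 lists of Wnt pathway genes, 0 passed the limma test for KO over depots. Differences of at least 2-fold between KO and WT were few in these lists. Rspo3, an R-spondin that amplifies Wnt signals, had 49.7 in KO and 199.3 in WT epididymal fat, so KO was at least 3.16-fold lower, and the ligand gene Wnt5b had 76.6 in KO and 182.0 in WT there, 2.38-fold lower. Nkd1, a feedback inhibitor gene that has also been described as varying with fat expansion in mice, was 2.02-fold higher in KO subcutaneous fat, with 204.7 in KO and 101.6 in WT, and had 269.4 in KO and 190.3 in WT epididymal fat. Rspo2 had 138.2 in KO and 7.0 in WT brown fat, at least 2.19-fold higher. Wnt5a, the ligand that Sfrp5 is known to bind, had log2 differences of 0.88, 0.14 and 0.18 in brown, subcutaneous and epididymal fat.

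Of 14 tested genes among the other secreted or surface modulators, 1 was higher and 8 were lower in brown than in white fat. The counts of this and the next lists stand beside 21.5% of all genes tested that were higher and 31.2% that were lower. Lgr6, an R-spondin receptor gene, was higher by 4.54 on the log2 scale, and the lower ones included Apcdd1, a membrane inhibitor of Wnt signalling (-3.96), the glypican gene Gpc3 (-2.32), Igfbp4 (-2.12) and Rspo1 (-2.07). Of 11 ligand genes 2 were higher (Wnt6 and Wnt3a) and 2 lower (Wnt9a and Wnt2). Of 15 receptor genes 2 were higher (Fzd7 and Fzd10) and 5 lower (Ror1, Fzd4, Fzd2, Fzd5 and Fzd1). Of 16 intracellular genes 1 was higher (Gsk3a) and 4 lower (Tcf7l2, Tcf7l1, Lef1 and Ctnnbip1). Of 9 common target genes 1 was higher, the feedback gene Axin2 (0.65), and 6 lower (Apcdd1, Lef1, Myc, Ccnd1, Nkd1 and Nkd2). Apcdd1 and Lef1 also stand on another of these lists and are counted there too. Between the white depots, Rspo1 was lower in subcutaneous fat, with a log2 difference of -3.31 (limma adjusted p = 0.00429) and Lef1, a factor through which beta-catenin acts, higher, with 3.15 (limma adjusted p = 0.00594). The other genes of the 5 lists that passed were Gpc3 (-1.08), Gpc4 (-0.99), Wnt9a (-1.15) and the receptor gene Ror1 (-1.19), lower in subcutaneous fat, and the ligand gene Wnt2 (1.35), higher. Over all genes tested, 5.06% passed between the white depots. Lef1 had 573.0 in KO and 669.1 in WT subcutaneous fat, 50.8 and 77.5 in epididymal fat, and 91.9 and 51.5 in brown fat. Lymphocyte markers were also higher in subcutaneous than in epididymal fat, for 7 of 8 tested. They summed to 16248 in KO and 17430 in WT subcutaneous fat, against 1236 and 1510 in epididymal fat. Their part in the Lef1 values was not tested.

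**Figure D5:**
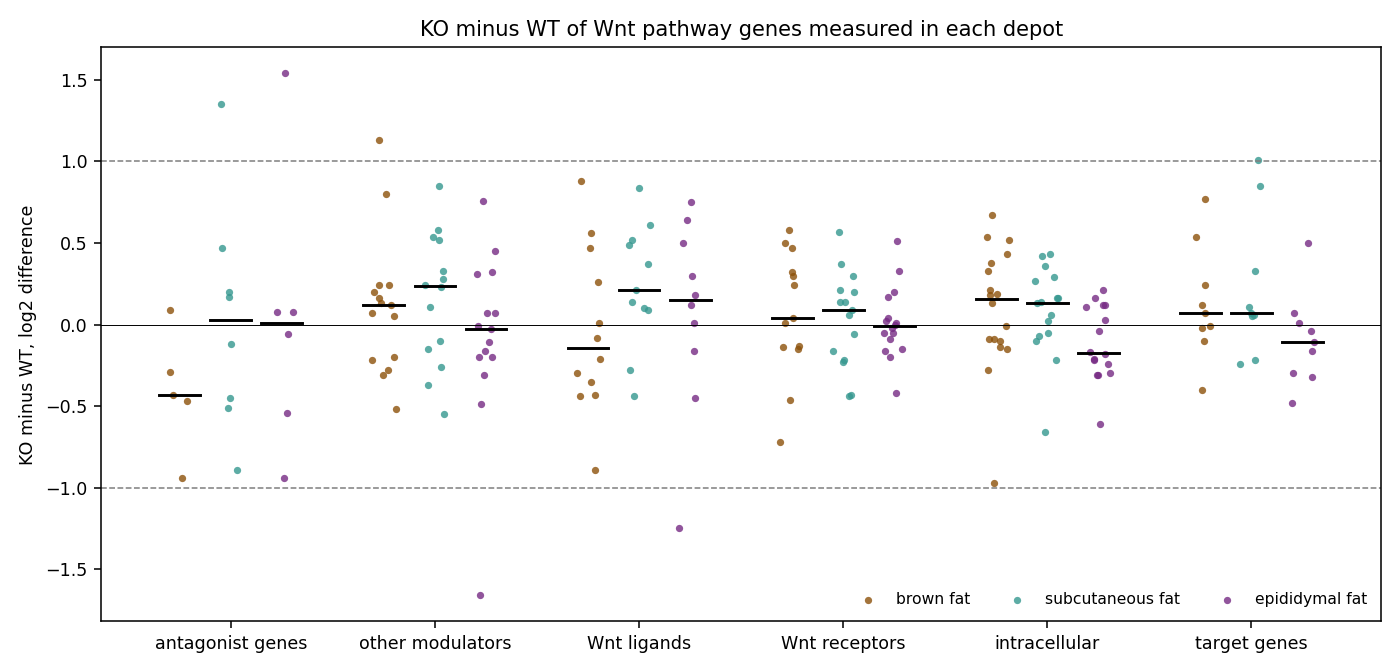
KO minus WT (log2) of the genes measured in each depot, by list of Wnt pathway genes, with 1 point per gene, the median as a bar and dashed lines at 2-fold. The antagonist genes include Sfrp5 at 1.35 and 1.54 in the white depots, the 2 highest points of the plot.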

How the data were processed

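The values were probe set intensities from 6 arrays, which the authors computed with MAS5 in Affymetrix Expression Console, per the submitters' processing notes (the versions: not given in the sources used here). This scales each array to a common brightness, so a change of total RNA cannot be seen, and dim probe sets are noisy. No detection calls entered. Genes were named from the platform annotation. The members and gene lists were chosen with earlier results of these data known.

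Signals were raised to a floor of 63.2 (40th percentile of the probe sets, median over arrays) and put on the log2 scale, with the brightest probe set per gene. limma 3.58.1 (R 4.3.3) was fitted with depot and genotype to the 13233 genes that passed the floor on 3 or more arrays, and with a genotype by brown term in a separate fit, with Benjamini-Hochberg adjustment over all genes and a threshold of 0.05. The fit was tested on simulated data. The number of arrays limits the precision. Named genes were all members, the 5 genes with the highest Pearson r to each tested member, and Wnt list genes past 2-fold or past the threshold, up to 4 others per list by mean signal, and Kdm4b. Mest was added after its values were seen. Alternatives were 2 scalings, other floors, probe sets and filters, an intensity trend, folds of 1.5 and 3, and left-out arrays. Other computations used Python 3.11.15 with matplotlib 3.10.9, scipy 1.17.1, pandas 2.3.3 and numpy 2.4.6.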

Additional observations from a re-analysis of the deposited data

Results flagged for a closer look

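The KO difference of Sfrp5 was marked for a closer look because it ran one way in both white depots and the other way in brown fat. Its brown difference minus its white difference was -2.39 on the log2 scale, with KO minus WT at -0.94 in brown fat, 1.35 in subcutaneous fat and 1.54 in epididymal fat. limma's test of that difference gave an unadjusted p of 0.000609 and an adjusted p of 0.529, with adjusted p between 0.000242 and 0.637 over the alternatives that gave one. Its error comes from the white arrays alone. The p-values come from the same arrays whose opposite signs led to the marking, so they are no separate evidence for it. The brown difference also rests on dim signals. With the floor at the 60th percentile it was -0.04, and the brown difference minus the white one was -1.49.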

How the results depend on the processing

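The depot term already sets KO against WT within each depot. Beyond that, no paired analysis was possible because each depot and genotype had 1 array and the labels carry no replicate numbers. The KO comparison over depots called 0 antagonist genes in all alternatives run. Brown against white fat called 4, but 5 with the floor at the 20th percentile and 1 with no filter on low signals. Subcutaneous against epididymal fat called 1 (Dkk3), but 0 with the floor at the 20th percentile, the mean of all probe sets, no filter or no floor, 2 with an intensity trend or median centring, and 0 to 1 with an array left out. The genotype by brown term called 0, and 1 with an intensity trend or median centring. At the 2-fold mark brown fat had 0 genes, and 1 at 1.5-fold. Subcutaneous fat had 1, but 2 with median centring, the 20th percentile or 1.5-fold, and 0 at 3-fold. Epididymal fat had 1, but 3 with the 20th percentile, 2 at 1.5-fold and 0 at 3-fold. The sign turned for Dkk3 in brown against white fat (0.04 with median centring, 0.07 with quantile normalization, -0.22 to 0.20 with an array left out). For the genotype by brown term, Sfrp4 had 0.08 with median centring and 0.00 with quantile normalization, and without the epididymal depot, chosen after seeing the data, Sfrp1 had -0.50, Sfrp2 0.02 and Sfrp4 0.42. The causes were not tested. Over all genes, 670 were called between the white depots (58 to 1898 over alternatives) and 0 for genotype (0 to 33) or for the genotype by brown term (0 to 147). The share of calls that were higher, under the deposited, quantile and median-centred scalings in turn, was 40.9%, 48.1% and 46.0% for brown against white fat and 77.2%, 62.4% and 27.2% for subcutaneous against epididymal fat. At 2-fold for KO it was 31.5%, 44.9% and 51.4% in brown, 74.7%, 63.7% and 49.8% in subcutaneous and 38.0%, 51.7% and 56.4% in epididymal fat. Median centring moved the median of all genes to 0.11, -0.12 and 0.11 in these depots and to -0.33 between the white depots. Members dimmer than the floor are limited by signal over background.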
